A study of Mus musculus with 17 samples.

Results

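Integrins and laminins form the main contact between cells and the extracellular matrix, and their genes were followed here through 17 mouse mammary tumours. The members were all genes whose symbol names an integrin alpha subunit, an integrin beta subunit or a laminin chain and that had a probe set naming a single gene. They came to 32 of the 12393 genes measured: 14 alpha subunits, 8 beta subunits and 10 laminin chains. The rule uses no measured value. By the cells they are best known from, 8 were grouped as epithelial, 7 as leukocyte, 13 as mesenchymal or matrix and 4 as other, the last holding the broadly expressed Itgav and Itgb1, the platelet subunit Itga2b and Itgb2l. Itga1, Itga10, Itga11, Itgad and Itgb8 were not analysed here.

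An integrin is a membrane receptor of 1 alpha and 1 beta subunit, and the pair decides which ligand it binds. A laminin is a trimer of 1 alpha, 1 beta and 1 gamma chain that self-assembles into the basement membrane under epithelium and around vessels, fat and muscle. In mammary gland the Itga6-Itgb4 integrin anchors basal cells to a laminin that holds the Lama3 and Lamb3 chains through hemidesmosomes, while integrins of the Itgb2 subunit are carried by leukocytes.

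The tumours arose in FVB mice from the T58A mutant of Myc. Its transgene is driven by the MMTV promoter, whose activity lies in the mammary epithelium, and the study describes them as low expressing. RNA of each was measured on 1 Affymetrix array, with log2 values per probe set as deposited. The histology label divides them into 9 Squamous tumours, 6 EMT tumours (epithelial to mesenchymal transition), 1 Papillary tumour and 1 Microacinar tumour. All carry the same transgene, and no normal mammary tissue or other control belongs to the series, so each comparison is between tumours. Numbers after a histology only tell its tumours apart. Values are of whole tumour RNA, in which more cells of a type and more RNA per cell cannot be told apart. Whether any tumours share an animal is not labelled. Squamous 7 shares a title number with Squamous 8, and Squamous 5 shares one with the Microacinar tumour. All p-values here speak only of the spread among these tumours, which may be technical in part.

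The arrays bear 2 title formats, which was a term of the gene model. EMT 5, EMT 6 and Squamous 9 have titles with TM after a number, and their values spread wider (SD over probe sets 2.46 to 2.51) than on the 14 numbered arrays (2.25 to 2.29). On these 3 arrays 2989 probe sets had exactly equal values. Itgal was among them, at 6.20 on each, and 6 other members (Itga2, Itga2b, Itgae, Itgb2l, Itgb3 and Itgb7) had 2 equal values there, so levels of these dim genes on TM arrays carry little information. The 3′ minus 5′ difference of the Gapdh control probe sets, a sign of RNA quality, lay between −0.03 and 0.39 on all arrays. That of the Actb control probe sets was larger, between 0.44 in EMT 6 and 0.96 in Squamous 2. Of the 32 members 15 averaged above the median gene (7.80): 6 epithelial, 2 leukocyte, 5 mesenchymal and 2 other. The number of tumours limits the precision of every value.

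Defining markers of epithelium were high in most tumours but not all. Cdh1 (E-cadherin) lay between 11.13 and 11.97 in Squamous tumours and between 11.84 and 12.09 in EMT 1 to EMT 3, but at 7.19, 8.10 and 7.04 in EMT 4 to EMT 6. Zeb1, a repressor of Cdh1, was at 10.13, 9.78 and 10.48 in these last tumours, above the Squamous maximum of 8.97. Among basal markers Krt5 spread from 5.35 in EMT 6 to 13.85 in EMT 2. The EMT label thus covers tumours of unlike makeup, and the members are given tumour by tumour before any average.

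**Figure D1:**
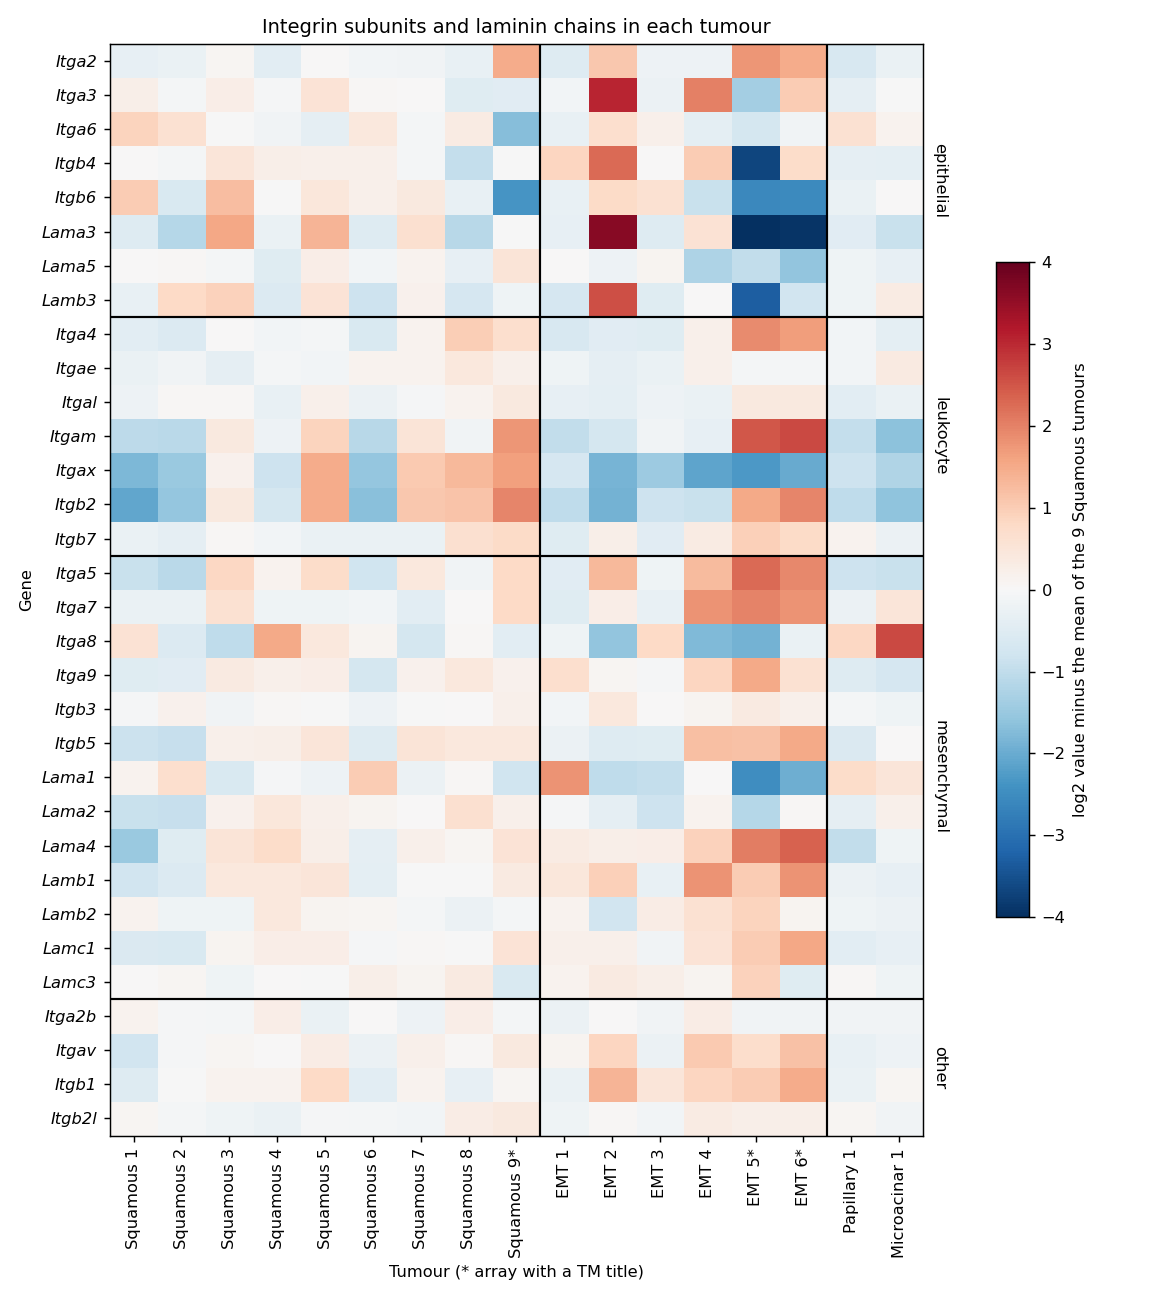
Heat map of the 32 members (vertical, by class) in the 17 tumours (horizontal, by histology), as log2 value minus the mean of the 9 Squamous tumours; differences past 4 are drawn at the end of the colour scale and an asterisk marks TM titles. EMT 2 stands high in Itga3, Itgb4, Lama3 and Lamb3, EMT 5 stands low in the same 4 genes, and Itgax is low in EMT 4 to EMT 6.

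Among the epithelial integrins, Itga6, the laminin-binding partner of Itgb4, was bright in every tumour. It ranged from 9.95 through a median of 11.65 to 12.54 in Squamous tumours. In EMT 1 to EMT 6 it was at 11.37, 12.33, 11.85, 11.25, 10.96 and 11.52. No EMT tumour left the Squamous range for Itga6, but its lower end is Squamous 9 alone, on a TM array. Against the 8 other Squamous tumours, of which the lowest had 11.30, EMT 4 and EMT 5 lay below.

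Its partner Itgb4, the subunit that ties to keratins in the hemidesmosome, spread far more among EMT tumours. Squamous tumours held it between 8.42 and 9.86 (median 9.40). The EMT values were 10.24, 11.63, 9.38, 10.39, 5.70 and 10.11 in EMT 1 to EMT 6. In EMT 1, EMT 2, EMT 4 and EMT 6 they lay above every Squamous tumour and in EMT 5 below every one, so the groups overlap through EMT 3 alone. EMT 4 and EMT 6 thus had high Itgb4 beside low Cdh1. In EMT 6 this rests on deposited values; after quantile normalization its Itgb4 was no longer above all Squamous tumours.

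Itga3, the alpha subunit of a second epithelial laminin receptor that pairs with Itgb1, lay between 8.57 and 9.62 in Squamous tumours (median 9.10). Above all of them lay EMT 2 (12.11), EMT 4 (11.08) and EMT 6 (10.10), and below all of them EMT 5 (7.71). EMT 1 (8.95) and EMT 3 (8.83) lay inside the range. Itga3 and Itgb4 were both high in EMT 2, EMT 4 and EMT 6 and both low in EMT 5.

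Itgb6, whose integrin with Itgav binds latent TGF-beta, had Squamous values of 4.19 to 7.77 (median 6.77) and EMT values of 6.27, 7.32, 7.16, 5.66, 3.98 and 4.02. The 3 lowest values of all were on the 3 TM arrays, Squamous 9 included. Itga2, a collagen receptor subunit, showed the opposite: 6.07 to 6.34 on the TM arrays against 4.17 to 4.66 in the 8 other Squamous tumours, with 5.67 in EMT 2. For both dim genes title format and tumour cannot be told apart within the TM arrays.

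The laminin chains of the epithelial basement membrane varied widely in the EMT tumours. Lama3, the alpha chain of the hemidesmosomal laminin, ran from 7.82 through 8.69 to 10.52 in Squamous tumours. It was at 8.63, 12.61, 8.44 and 9.52 in EMT 1 to EMT 4 and at 4.89 and 5.04 in EMT 5 and EMT 6. The distance from EMT 2 to EMT 5 was the longest among the 32 members. Lamb3, the beta chain of the same laminin, ran from 8.40 through 9.06 to 10.15 in Squamous tumours and was at 8.54, 11.81, 8.75, 9.25, 5.92 and 8.47 in EMT 1 to EMT 6. EMT 6 therefore had low Lama3 beside Lamb3 inside the Squamous range, while EMT 5 was low in both; after quantile normalization Lamb3 in EMT 6 was below all Squamous tumours too.

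Lama5, the alpha chain of the more widespread epithelial and vascular laminins, gave tight Squamous values of 8.56 to 9.53 (median 9.05). EMT 1 to EMT 3 were at 9.04, 8.81 and 9.13, inside that range. EMT 4 to EMT 6 were at 7.79, 8.04 and 7.45, below every Squamous tumour. These are the tumours with low Cdh1. Lama5 was the epithelial member below the whole Squamous range in exactly these tumours, unlike Itga3 and Itgb4. Itgb6 was also low in them, at 5.66, 3.98 and 4.02. The lowest Squamous values of Itgb6 were 4.19 in Squamous 9, on a TM array, and 5.96 in Squamous 2.

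Epithelial and basal marker lists are given beside these values. The mean of 12 epithelial markers was 10.22 to 11.42 in Squamous tumours, 10.64 to 11.57 in EMT 1 to EMT 3, and 7.29, 6.01 and 6.98 in EMT 4 to EMT 6. The mean of 6 basal markers was 7.86 to 10.79 in Squamous tumours, 11.67 in EMT 2, and 6.18, 5.38 and 5.52 in EMT 4 to EMT 6. In EMT 4 the basal markers Krt5 (6.40) and Trp63 (4.32) were low while Itga3 and Itgb4 were high. Krt8, a keratin of simple epithelium, was at 13.20 in EMT 4 and 12.50 in EMT 6 but 7.35 in EMT 5. EMT 5 was the tumour where Itgb4, Itga3, Lama3 and Lamb3 were all low. Krt8 was an exception, the only 1 of the 12 epithelial markers with a log2 fold change, EMT minus Squamous, above 0. Epcam of the same list was at 7.09, 5.92 and 7.56 in EMT 4 to EMT 6, against 11.19 to 12.05 in Squamous tumours. The part of epithelial content in these members was not tested.

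**Figure D2:**
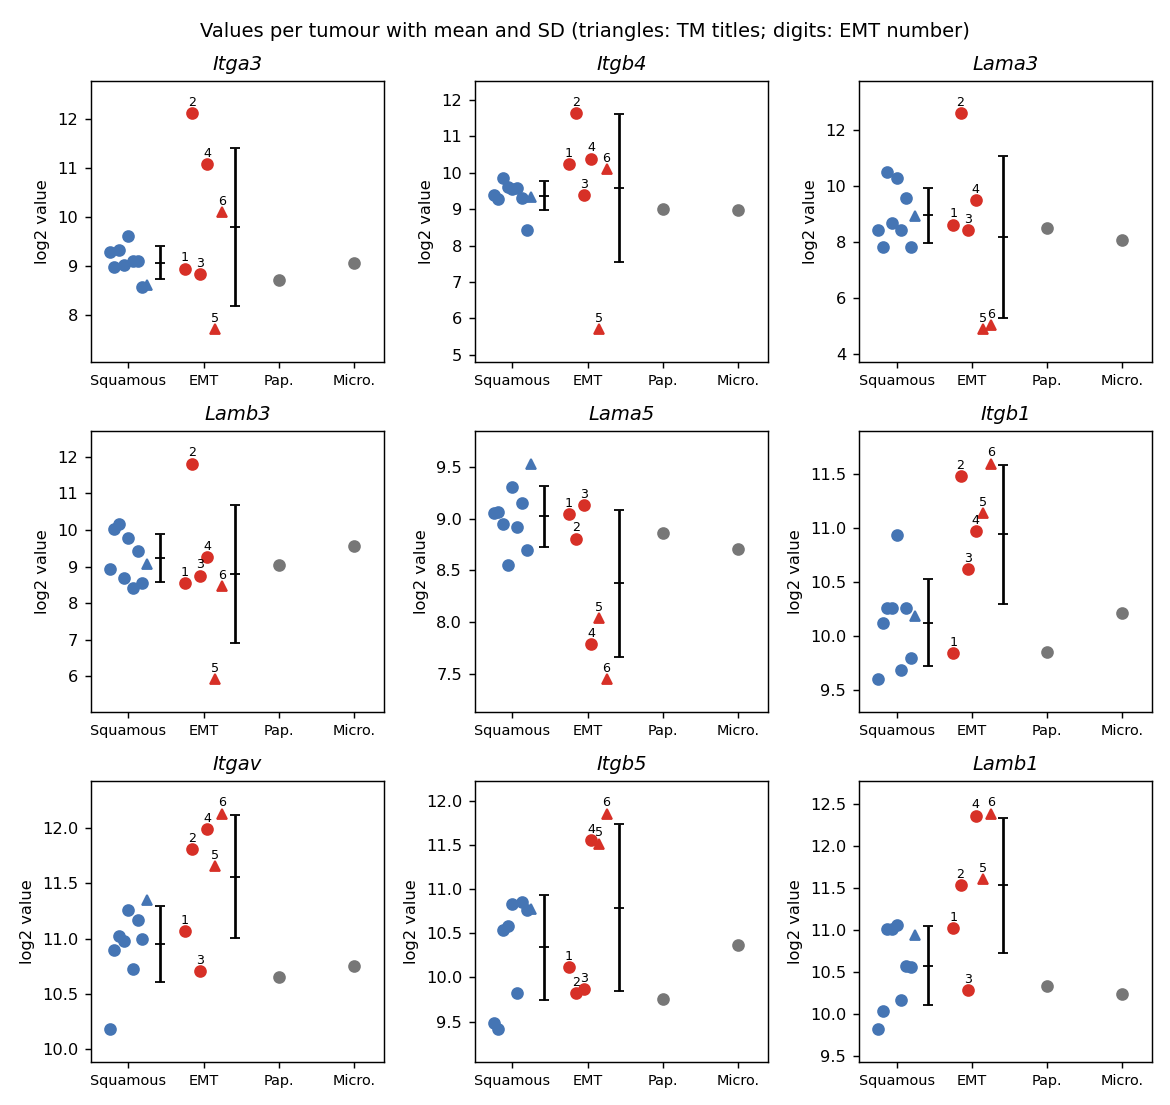
Log2 value of 9 members in each tumour (vertical) by histology (horizontal), with the mean and SD of the 9 Squamous and 6 EMT tumours; digits number the EMT tumours and triangles mark TM titles. Itgb4 in EMT 5 is at 5.70 against 8.42 to 9.86 in Squamous tumours, and Lama5 is below all Squamous tumours in EMT 4 to EMT 6.

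The broadly expressed subunits followed. Itgb1, the common partner of the collagen, fibronectin and laminin receptors, lay between 9.60 and 10.93 in Squamous tumours (median 10.19) and at 9.85, 11.48, 10.62, 10.97, 11.14 and 11.59 in EMT 1 to EMT 6. EMT 2, EMT 4 to EMT 6 were above every Squamous tumour, EMT 4 only just above Squamous 5, and after quantile normalization EMT 5 was not. Itgav, which binds RGD motifs in vitronectin, fibronectin and latent TGF-beta, lay between 10.18 and 11.35 in Squamous tumours and at 11.07, 11.81, 10.71, 11.99, 11.66 and 12.13 in EMT 1 to EMT 6. The same 4 tumours exceeded the Squamous range for Itgav. Itga2b lay within 7.13 to 7.64 in Squamous and 7.16 to 7.70 in EMT tumours, and Itgb2l was below 6 in all of them.

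Among the mesenchymal integrins, Itga5, the fibronectin receptor subunit, ran from 6.17 through 7.39 to 8.07 in Squamous tumours. It was at 6.81, 8.55, 7.08, 8.53, 9.50 and 9.16 in EMT 1 to EMT 6, above the Squamous range in EMT 2, EMT 4 to EMT 6 again. Itgb5, a partner of Itgav that binds vitronectin, was at 11.56, 11.52 and 11.86 in EMT 4 to EMT 6, above the Squamous maximum of 10.86. EMT 1 to EMT 3 had Itgb5 at 10.12, 9.82 and 9.87, inside the Squamous range of 9.41 to 10.86. EMT 2 thus joined the other tumours for Itgav, Itgb1 and Itga5 but not for Itgb5.

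Itga7, the laminin receptor subunit of muscle, had Squamous values of 4.93 to 6.13 (median 5.17). It was at 7.14, 7.34 and 7.14 in EMT 4 to EMT 6, and at 4.87, 5.60 and 5.04 in EMT 1 to EMT 3. The mean of 10 skeletal muscle markers was 11.44 in EMT 4 and 8.79 in EMT 6 but 4.98 in EMT 5, the lowest of all tumours. It was 10.57 in the Microacinar tumour, where Itga7 was at 5.83. The muscle marker mean was also above that of EMT 6 in the Papillary tumour (9.94), Squamous 3 (9.53) and Squamous 6 (9.27). Itga7 was at 5.10, 5.96 and 5.24 in these tumours. High Itga7 was measured beside muscle marker RNA in EMT 4 and EMT 6, and beside little of it in EMT 5. The highest Squamous Itga7, 6.13, was in Squamous 9, on a TM array like EMT 5 and EMT 6. The part of muscle content was not tested.

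Itga8, an RGD-binding subunit of mesenchymal cells, went the other way in EMT 2, EMT 4 and EMT 5. It ran from 5.02 through 6.09 to 7.55 in Squamous tumours and was at 4.47, 4.28 and 4.14 in these EMT tumours. EMT 1, EMT 3 and EMT 6 were inside the Squamous range at 5.87, 6.83 and 5.78. The Microacinar tumour had 8.67, the highest value of the series and the only member it held above the Squamous range. Itga9, which binds tenascin and Vcam1, was at 8.14, 8.33, 8.98 and 8.08 in EMT 1, EMT 4 to EMT 6, above the Squamous maximum of 7.91; EMT 6 was not above it after quantile normalization or with the mean of the probe sets. Itgb3, the partner of Itga2b and Itgav, stayed between 5.20 and 5.82 in Squamous and EMT tumours.

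Among the laminin chains of vessels and stroma, Lamb1 and Lama4 were high in all 3 EMT tumours with low Cdh1. Lamb1, the common beta chain, ran from 9.82 through 10.57 to 11.06 in Squamous tumours and was at 11.02, 11.53, 10.28, 12.36, 11.60 and 12.38 in EMT 1 to EMT 6. Lama4, the alpha chain of vascular and mesenchymal laminin, ran from 7.64 through 9.32 to 9.87 in Squamous tumours and was at 9.45, 9.35, 9.39, 10.05, 11.16 and 11.47 in EMT 1 to EMT 6. EMT 4 to EMT 6 lay above the Squamous range for both chains, except that EMT 4 was not above it for Lama4 with the mean of the probe sets.

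Lamc1, the gamma chain shared by most laminins, was at 9.31, 9.29, 8.96, 9.63, 10.12 and 10.63 in EMT 1 to EMT 6 against 8.48 to 9.64 in Squamous tumours. Only EMT 5 and EMT 6 were above that range. Lamb2, a beta chain of muscle and vessel laminins, reached 8.67 in EMT 4 and 8.98 in EMT 5 and was at 7.30 in EMT 2, against 7.86 to 8.49 in Squamous tumours. Lama2, the alpha chain of muscle and nerve laminin, was inside the Squamous range of 6.39 to 7.94 in 5 of 6 EMT tumours and at 6.16 in EMT 5. Lamc3 stayed under 6.10 in all tumours.

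Lama1, an alpha chain best known from embryonic and glandular basement membranes, set EMT tumours apart from one another. It was nonetheless grouped with the mesenchymal or matrix members and enters their counts and medians. Squamous tumours held it between 6.53 and 8.32 (median 7.27). EMT 1 was at 9.12, above all of them. EMT 2, EMT 3, EMT 5 and EMT 6 were below all of them at 6.29, 6.35, 4.83 and 5.36, and EMT 4 was inside at 7.32. In EMT 5 and EMT 6, Lama1 was low while Lama4 was high.

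Fibroblast and vessel marker levels differed between tumours as well. The mean of 10 fibroblast markers was 8.73 to 11.94 in Squamous tumours and 12.56, 12.02 and 11.56 in EMT 4 to EMT 6. The mean of 8 endothelial markers was 6.58 to 8.41 in Squamous and 7.15 to 8.51 in EMT tumours. The Zeb, Snai, Twist and Vim list averaged 9.30, 9.02 and 9.26 in EMT 4 to EMT 6 against 6.59 to 8.53 in Squamous tumours. EMT 6 had the highest Lama4 and Lamc1 of all tumours, and a Lamb1 level with EMT 4. The fibroblast marker mean of EMT 6, 11.56, was above those of all Squamous tumours except Squamous 9 (11.94). The part of stromal content in the laminin and mesenchymal integrin values was not tested.

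The leukocyte subunits are described with a stretch of promoter for 2 of them, since both pair with Itgb2 and lie near each other on chromosome 7 yet parted in some EMT tumours. The RefSeq promoter table (GRCm38.p6) held 20 of the 32 members, 4 of them with a window wholly inside the annotated gene. The windows of 250 bases before the listed start were searched on both strands for TGANTCA (AP-1), GAGGAA (the core of PU.1 sites) and GGGCGG (the GC box), and capitals mark the matches, which do not overlap. The bases shown are those outside the annotated gene, on the plus strand: chr7:128129300-128129525 for Itgax and chr7:128062390-128062639 for Itgam.
Itgax: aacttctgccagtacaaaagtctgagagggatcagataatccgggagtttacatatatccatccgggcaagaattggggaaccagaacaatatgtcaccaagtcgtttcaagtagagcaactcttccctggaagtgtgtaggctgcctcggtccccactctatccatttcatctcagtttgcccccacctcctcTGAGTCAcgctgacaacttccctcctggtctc
Itgam: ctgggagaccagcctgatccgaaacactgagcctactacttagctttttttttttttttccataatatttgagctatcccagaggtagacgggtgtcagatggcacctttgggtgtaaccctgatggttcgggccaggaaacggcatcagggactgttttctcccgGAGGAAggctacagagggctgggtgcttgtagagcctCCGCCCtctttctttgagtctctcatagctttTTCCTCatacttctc
The Itgax window had the AP-1 letters and neither of the others, and the Itgam window had 2 GAGGAA matches and 1 GGGCGG match. Of the 27025 genes with such a window, 6.87% held TGANTCA, 23.1% GAGGAA and 32.9% GGGCGG; among the 20 members 1, 11 and 8 did. A match is a description of the letters and no test of binding.

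Itgb2, the common beta subunit of leukocyte integrins, had the widest spread of all members in Squamous tumours, with an SD of 1.53. It ran from 8.25 in Squamous 1 through a median of 10.72 to 12.28 in Squamous 9. In EMT 1 to EMT 6 it was at 9.32, 8.44, 9.51, 9.46, 11.86 and 12.29. EMT 5 and EMT 6 were thus near the highest Squamous tumour, whose array also has a TM title, and the other EMT tumours in the lower part of the range.

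Itgam, the alpha subunit of complement receptor integrin on macrophages and neutrophils, ran from 6.10 through 7.05 to 8.98 in Squamous tumours. It was at 6.20, 6.51, 7.05 and 6.87 in EMT 1 to EMT 4 and at 9.67 and 9.84 in EMT 5 and EMT 6, above every Squamous tumour. Itgax, the CD11c subunit of dendritic cells and some macrophages, ran from 7.65 through 9.62 to 11.08 in Squamous tumours and was at 8.78, 7.58, 7.9996, 7.34, 7.16 and 7.43 in EMT 1 to EMT 6. Its values in EMT 2, EMT 4 to EMT 6 lay below all Squamous tumours. EMT 5 and EMT 6 therefore had high Itgb2 and Itgam beside low Itgax.

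The difference of Itgax minus Itgb2, chosen after their values were seen and so given with no test, makes this plain within each array. It was between −1.20 and −0.60 in all 9 Squamous tumours, −0.54 in EMT 1, −0.86 in EMT 2, −1.51 in EMT 3, −2.12 in EMT 4, −4.70 in EMT 5 and −4.86 in EMT 6. Squamous 9, on a TM array like EMT 5 and EMT 6, had −1.20. The difference of Itgam minus Itgb2 was −2.19 in EMT 5 and −2.45 in EMT 6, inside the Squamous range of −4.42 to −2.09. The Papillary and Microacinar tumours had Itgax minus Itgb2 at −0.72 and −0.47.

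Myeloid markers were present in all of these tumours. The mean of 12 myeloid markers was 9.94 to 11.76 in Squamous tumours, 10.30 to 10.58 in EMT 1 to EMT 4, and 11.91 and 11.996 in EMT 5 and EMT 6. The mean of 14 leukocyte markers was 8.54 to 10.03 in Squamous and 8.58 to 9.57 in EMT tumours, and Ptprc (CD45) was at 11.39 and 11.56 in EMT 5 and EMT 6 against at most 11.25 in Squamous tumours. Among the myeloid genes S100a8, S100a9 and Cd14, named here after their values were seen, S100a8 was at 8.42 and 10.78 and S100a9 at 7.41 and 9.03 in EMT 5 and EMT 6, below the Squamous minima of 12.26 and 10.12, while Cd14 was at 12.12 and 11.86 there and at 9.17 in EMT 4, with 11.09 to 12.23 in Squamous tumours. S100a8 and S100a9 were also below these minima in EMT 4 (7.76 and 6.99) and in the Microacinar tumour (9.98 and 7.63). On average over EMT tumours Cd14, S100a8 and S100a9 had log2 fold changes of −1.20, −2.005 and −2.29 (limma adjusted p = 0.170, 0.276 and 0.268). Csf1r, C1qa, C1qb and C1qc of the same list went the other way, at 0.34, 0.41, 0.45 and 0.47. Their limma adjusted p lay between 0.697 and 0.731. Csf1r was at 13.79 and 13.57 in EMT 5 and EMT 6, above the Squamous maximum of 12.29. The low Itgax of EMT 5 and EMT 6 was thus measured beside a high myeloid mean and low S100a8 and S100a9, and the kinds of myeloid cell present were not tested.

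The lymphocyte subunits were dim. Itgae and Itgal, which mark mucosal T cells and most lymphocytes, did not exceed 6.20 in any tumour. Itgb7, the partner of Itga4 and Itgae, ran from 5.83 to 6.96 in Squamous and 5.69 to 7.14 in EMT tumours. Itga4, a Vcam1 receptor subunit, was at 7.39 in EMT 5 and 7.15 in EMT 6 against a Squamous maximum of 6.47, and at 4.87 to 5.69 in EMT 1 to EMT 4. The mean of 11 lymphoid markers was 5.22 to 5.61 in EMT and 5.28 to 6.82 in Squamous tumours, highest in Squamous 8, which also had the highest Itgae (6.10) and Itga4 (6.47) among Squamous tumours.

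**Figure D3:**
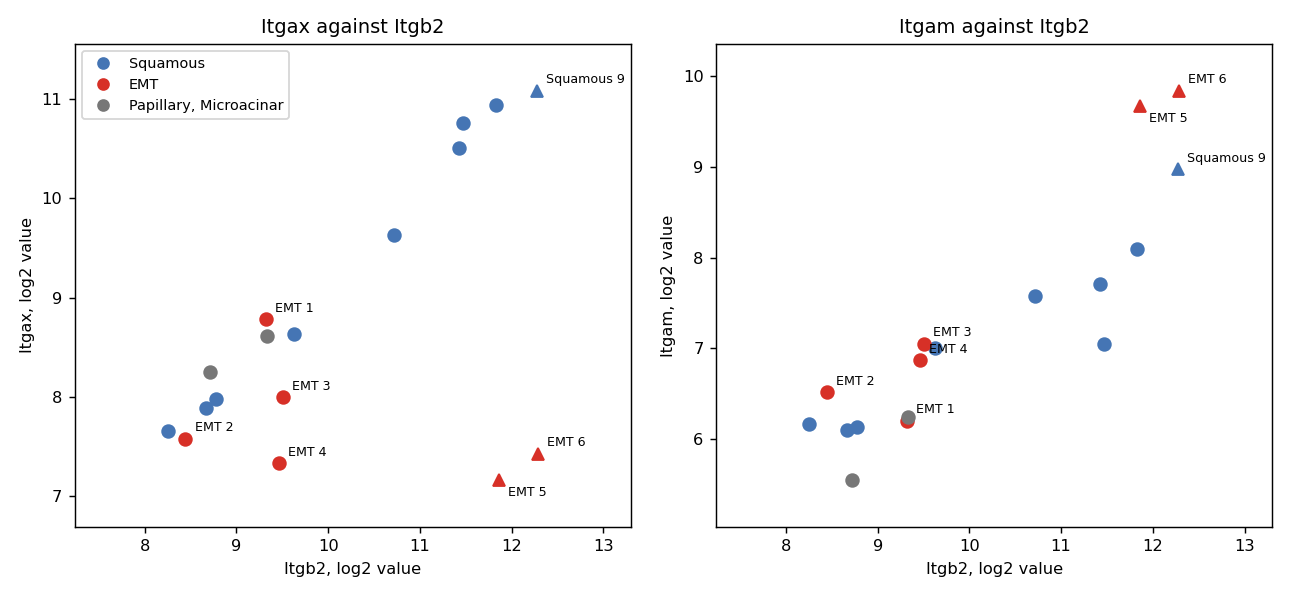
Log2 values of Itgax (left, vertical) and Itgam (right, vertical) against Itgb2 (horizontal) in the 17 tumours; colours mark histology and triangles TM titles. The 9 Squamous tumours follow a line for Itgax from which EMT 5 and EMT 6 lie apart at 7.16 and 7.43, while for Itgam these tumours lie at the upper end of the cloud.

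Each tumour outside the Squamous group was then set against the range of the 9 Squamous tumours. Above that range lay 3 members in EMT 1 (10.1% of all genes), 10 in EMT 2 (15.5%), 0 in EMT 3 (9.26%), 12 in EMT 4 (19.6%), 16 in EMT 5 (27.1%) and 14 in EMT 6 (26.8%). The counts under it were 5 members in EMT 1 (8.42% of all genes), 6 in EMT 2 (19.2%), 2 in EMT 3 (6.44%), 3 in EMT 4 (17.6%), 10 in EMT 5 (20.1%) and 5 in EMT 6 (16.9%). In EMT 5 the 10 low members were 6 of 8 epithelial, 1 of 7 leukocyte and 3 of 13 mesenchymal ones. The 16 high members were 1 of 8 epithelial, 3 of 7 leukocyte, 10 of 13 mesenchymal and 2 of 4 other ones. Among these high members were Itga2, Itgb3 and Itgb7, dim genes whose levels on TM arrays carry little information. Members outside the range numbered 26 of 32 in EMT 5, a TM array with 27.1% of all genes above and 20.1% below. EMT 3 had Itgb7 and Lama1 alone outside it, both low. The Papillary tumour had 0 members above (8.26% of all genes) and Itga2 and Itgal below (8.26%), and the Microacinar tumour had Itga8 above (11.1%) and Itgam and Lamb2 below (10%).

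EMT and Squamous tumours, the histologies with replicates, were compared next to ask how the members differ on average. In the fit over all 12393 genes with title format as a term, 0 members passed the threshold of 0.05 on the limma adjusted p, and 0.0% of all genes did; without EMT 1, 14 genes passed, with 0 members among them. At an unadjusted p under 0.05, 4 members were higher in EMT (Itgav, Itgb1, Lama4 and Lamb1; 8.08% of all genes) and 3 lower (Itgal, Itgax and Lama5; 6.27% of all genes). Itgax alone had a log2 fold change of −1 or less (3.27% of all genes) and 0 members had 1 or more (0.952%). A fold change above 0 was found for 19 of 32 members, and for 51.8% of all genes. The smallest adjusted p of any member was 0.241.

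The Itgax mean was 7.72 ± 0.59 (SD, n = 6) among EMT tumours, against 9.45 ± 1.42 (SD, n = 9) among Squamous ones, a log2 fold change of −1.82 (SE 0.62, limma adjusted p = 0.241), with −1.32 on numbered arrays. It was in 4 of the 6 EMT tumours that Itgax lay below every Squamous tumour. Lamb1 averaged 11.53 ± 0.80 (SD, n = 6) against 10.58 ± 0.47 (SD, n = 9), a log2 fold change of 0.82 (SE 0.31, limma adjusted p = 0.267), with 4 EMT tumours above all Squamous ones. Itgb1 averaged 10.94 ± 0.64 (SD, n = 6) against 10.12 ± 0.40 (SD, n = 9), a log2 fold change of 0.73 (SE 0.26, limma adjusted p = 0.252).

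Lama4 had a log2 fold change of 0.73 (SE 0.32, limma adjusted p = 0.324) and Itgav one of 0.50 (SE 0.21, limma adjusted p = 0.317). Lama5 had −0.57 (SE 0.26, limma adjusted p = 0.336), which was −0.27 on numbered arrays. The small fold change of Itgal, −0.20 (limma adjusted p = 0.329), was −0.25 on numbered arrays, where its values are not tied. None of these differences was beyond the spread between tumours once adjusted over all genes.

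Itga3 had a log2 fold change of 0.95 (SE 0.51, limma adjusted p = 0.406), which was 0.45 without EMT 2. Itgb4 had 0.54 (SE 0.61, limma adjusted p = 0.716), with 0.14 without EMT 2, 0.99 without EMT 5 and 1.03 on numbered arrays. Lama3 had −0.12 (SE 0.83, limma adjusted p = 0.960) and Lamb3 −0.10 (SE 0.60, limma adjusted p = 0.955), and both turned positive on numbered arrays, to 0.84 and 0.34. Without EMT 2 the values of Lama3 and Lamb3 were −1.004 and −0.74, and without EMT 5 they were 0.09 and 0.20. The values on numbered arrays are also those without Squamous 9. The SD of Lama3 was 2.91 in EMT tumours and 0.98 in Squamous tumours, and that of Itgb4 2.03 and 0.40.

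Among other mesenchymal members, log2 fold changes were 0.73 for Itga5, 0.56 for Itga7, 0.50 for Itga9, 0.36 for Lamc1 and −0.71 for Itga8, with limma adjusted p between 0.358 and 0.512. Itga7 was at 0.20 without EMT 4. Lama1 had −0.40, Lama2 −0.35, Lamb2 0.16, Lamc3 0.28 and Itgb3 0.12, with limma adjusted p between 0.504 and 0.744. Itgb5 had 0.22 (limma adjusted p = 0.794) and Itga6 0.13 (limma adjusted p = 0.863). Itgb2 had −0.77 (SE 0.59, limma adjusted p = 0.562) and Itgam −0.10 (limma adjusted p = 0.922). The median log2 fold change was 0.01 over the epithelial members, −0.16 over the leukocyte, 0.28 over the mesenchymal and 0.26 over the other members, beside 0.01 over all genes. The epithelial median was −0.24 without EMT 2. On numbered arrays the medians were 0.29 over the epithelial, −0.27 over the leukocyte, 0.14 over the mesenchymal and 0.28 over the other members.

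**Figure D4:**
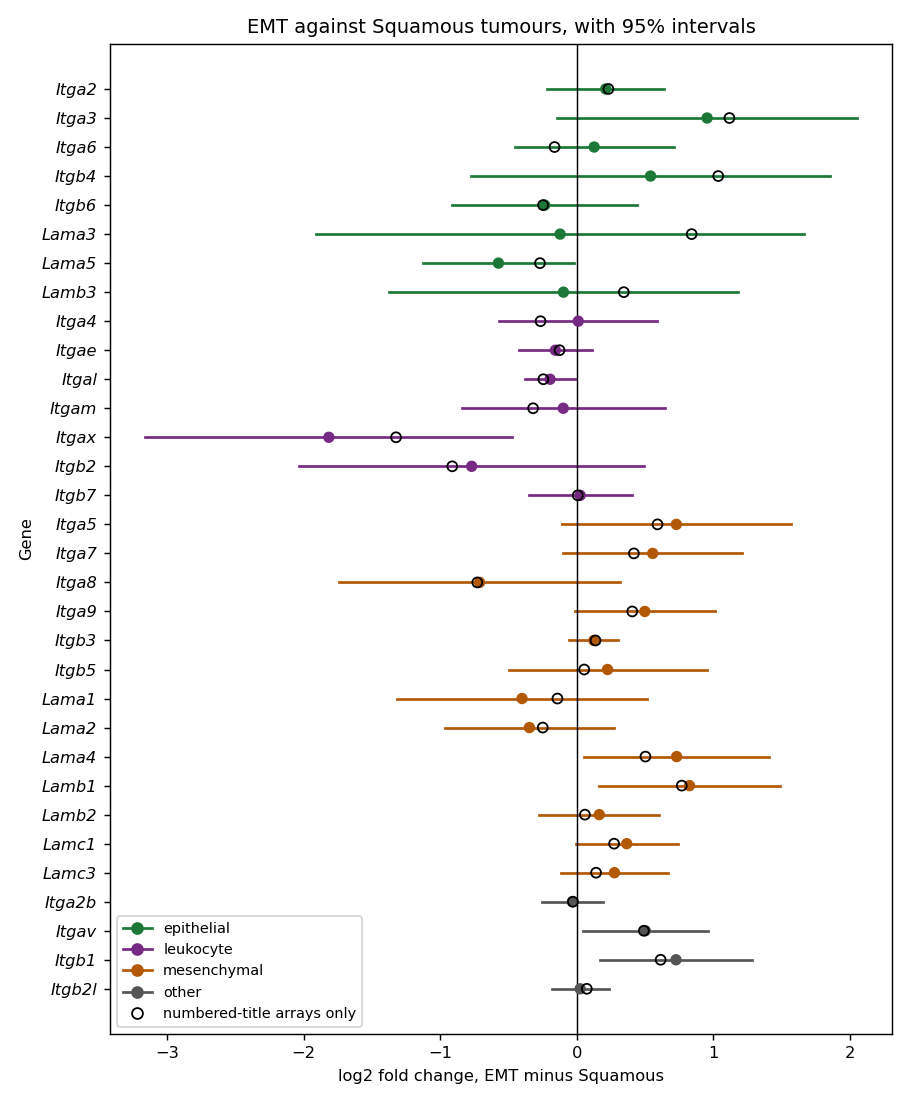
Log2 fold change of each member, EMT minus Squamous (horizontal), with its 95% interval from the model with title format as a term; colours mark classes and open circles the fold change on numbered arrays only. Itgax lies lowest at −1.82, and the intervals of Itga3, Itgb4, Lama3 and Lamb3 are among the widest.

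Genes that work with the integrins were taken from 4 lists. Of 25 adaptors that link integrins to actin, 0 passed the adjusted threshold of the limma test. At an unadjusted p under 0.05, 6 were higher in EMT (Zyx, Pxn, Ilk, Lims1, Vasp and Kank2; 8.08% of all genes) and 1 lower (Lims2; 6.27% of all genes), shares that also stand behind the counts of the next 3 lists, and the median log2 fold change was 0.28. Zyx, an actin-regulating protein of focal adhesions, had the highest at 0.73 (SE 0.23, limma adjusted p = 0.213). Its values in EMT 1 to EMT 6 were 8.96, 10.11, 9.61, 10.05, 10.73 and 10.94 against 8.54 to 9.55 in Squamous tumours. Kank2 followed with 0.57 (0.29 on numbered arrays), and Actn4 and Lims2 were lowest at −0.37 and −0.34.

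Of 6 hemidesmosome partners Cd151, a tetraspanin that binds laminin receptors, was higher at an unadjusted p under 0.05, 0 were lower and 0 passed the adjusted threshold. Its log2 fold change was 0.35 (limma adjusted p = 0.313), with 11.70, 12.08 and 11.74 in EMT 4 to EMT 6 above the Squamous maximum of 11.17. Plec, the plectin that binds Itgb4, had 0.48, while the basal keratins Krt5 and Krt14 had −1.75 and −1.57, which were −0.50 and −0.46 on numbered arrays. The median was −0.32, with 0.05 on numbered arrays and −0.81 without EMT 2.

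Of 18 basement membrane partners 1 was lower at an unadjusted p under 0.05 and 0 higher, with a median log2 fold change of 0.14. The lower one was Bcam, a receptor for Lama5 laminins, at −0.77 (SE 0.26, limma adjusted p = 0.238), with −0.47 on numbered arrays. Its values of 6.68, 6.02 and 5.70 in EMT 4 to EMT 6 were below the Squamous range of 7.84 to 8.42, while EMT 1 to EMT 3 were at 8.03, 8.16 and 8.0045. Bcam and Lama5 were thus low in the same 3 tumours. Col18a1 and Nid2, a collagen and a nidogen of basement membrane, had 0.91 and 0.66, and Col4a5 had −0.95.

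Of 15 integrin ligands 1 was lower at an unadjusted p under 0.05 and 0 higher, with a median of 0.29. The lower one was Mfge8, an RGD-bearing milk fat globule protein that binds Itgav integrins, at −1.50 (SE 0.37, limma adjusted p = 0.153). The Squamous tumours held Mfge8 between 12.12 and 13.50, and EMT 2, EMT 4 to EMT 6 were at 10.36, 11.30, 10.75 and 10.83. Cdh1, also on this list, had the next lowest fold change at −1.42 (SE 0.69, limma adjusted p = 0.368), with −0.89 on numbered arrays. Tnc (tenascin C, a ligand of Itga9) and Fn1 (fibronectin, the ligand of Itga5) had 1.35 and 0.78, neither past the unadjusted threshold. Fn1 was at 13.71, 14.46 and 14.56 in EMT 4 to EMT 6 against a Squamous maximum of 13.39. In both lists 0 genes passed the adjusted threshold of the limma test.

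Marker lists of other cell types had median log2 fold changes of −1.49 (epithelial), −1.66 (basal epithelial), −0.26 (leukocyte), −0.07 (myeloid), −0.45 (lymphoid), 0.43 (fibroblast), 0.19 (endothelial), −0.47 (smooth muscle), 0.93 (skeletal muscle) and −0.22 (nerve or pericyte), and the Zeb, Snai, Twist and Vim list had 0.58. The epithelial members, with a median of 0.01, did not share the low median of the epithelial markers; the difference was not tested. On numbered arrays, the estimate left without Squamous 9, the epithelial median was −0.89, the basal one −0.47, the smooth muscle one 0.0037 and the myeloid one −0.27. The basal median was −2.48 without EMT 2, and the epithelial one −0.75 and the basal one −0.85 without EMT 4. The fibroblast and skeletal muscle medians were both 0.04 without EMT 4, and the endothelial one was −0.02 without EMT 2 and 0.06 without EMT 4.

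Textbook partners were set against each other over the 9 Squamous tumours, so that histology does not enter. Of 20 pairs listed 18 were measured, and 8 passed after Benjamini-Hochberg adjustment of exact two-sided permutation tests over all pairings. The share of other gene pairs that would pass over these tumours was not measured, so the count shows nothing particular to partners. Itgax and Itgb2 had the closest relation, with Pearson r = 0.99 (exact permutation adjusted p = 4.96e-05) and Spearman rho = 1.00 (exact permutation adjusted p = 9.92e-05). Without the 2 tumours farthest from the median of Itgax, r was 0.99 (exact permutation adjusted p = 0.00357). It was the only pair past the threshold in that setting, which leaves 7 tumours; the r of each other pair there is given beside it.

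The stromal laminin chains were ordered alike. Lama4 and Lamb1 had r = 0.92 and rho = 0.85 (exact permutation adjusted p = 0.00226 and 0.0182), and r = 0.88 (exact permutation adjusted p = 0.105) without the 2 farthest tumours. Lamb1 and Lamc1 had r = 0.89 and rho = 0.87 (exact permutation adjusted p = 0.00347 and 0.0182), and r = 0.69 without the 2 farthest. Lama4 and Lamc1 had r = 0.85 and rho = 0.90 (exact permutation adjusted p = 0.00572 and 0.0122), and r = 0.68 without the 2 farthest; with the mean of the probe sets this pair had r = 0.64 and no longer passed (exact permutation adjusted p = 0.166). Squamous 1 and Squamous 2, whose fibroblast marker means were the lowest at 8.73 and 9.11, had the lowest Squamous values of all 3 chains, and the part of stromal content was not tested.

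**Figure D5:**
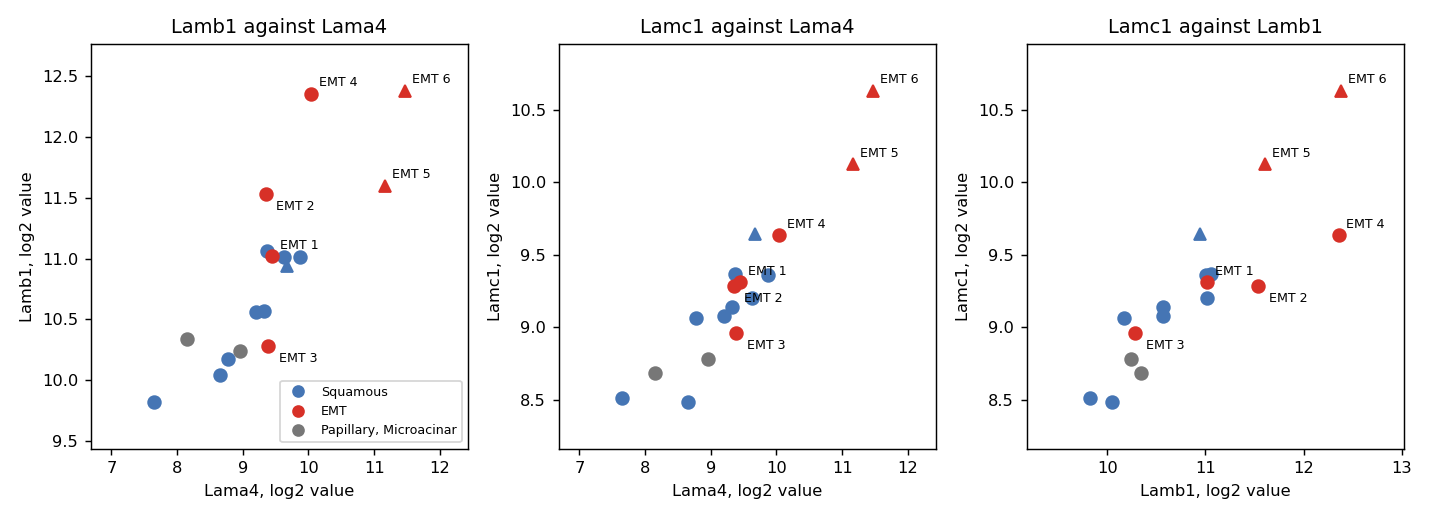
Log2 values of Lama4, Lamb1 and Lamc1 plotted against one another in the 17 tumours, with colours for histology and triangles for TM titles. The Squamous tumours lie along a rising line in each panel (r = 0.92, 0.85 and 0.89), and EMT 5 and EMT 6 lie at the upper right.

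Among leukocyte pairs, Itgam and Itgb2 had r = 0.92 and rho = 0.90 (exact permutation adjusted p = 0.00316 and 0.0122), with r = 0.89 without the 2 farthest tumours. Itga4 and Itgb7 had r = 0.89 and rho = 0.85 (exact permutation adjusted p = 0.0125 and 0.0182), and r = 0.54 without the 2 farthest. Itgal and Itgb2 had r = 0.78 and rho = 0.78 (exact permutation adjusted p = 0.0350 and 0.0388), with r = 0.75 without the 2 farthest tumours, and on numbered arrays r = 0.71 (exact permutation adjusted p = 0.130). Squamous 9, where Itgal had the value shared by all TM arrays, therefore entered that call. The myeloid marker mean of Squamous tumours was 9.94 to 11.76, and its part in these relations was not tested.

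Itgav and Itgb5 had r = 0.79 and rho = 0.83 (exact permutation adjusted p = 0.0133 and 0.0213), with r = 0.76 without the 2 farthest tumours and 0.52 with the mean of the probe sets, where it no longer passed (exact permutation adjusted p = 0.205). The pairs of the epithelial basement membrane did not pass. Itga6 and Itgb4 had r = −0.13 and rho = −0.20 (exact permutation adjusted p = 0.812 and 0.789). Lama3 and Lamb3 had r = 0.56 and rho = 0.50 (exact permutation adjusted p = 0.203 and 0.320), and r = 0.02 without the 2 farthest. Itga5 and Itgb1 had r = 0.70 and rho = 0.75 (exact permutation adjusted p = 0.0589 and 0.0510), and the other 7 pairs had r between −0.49 and 0.58.

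Several members were read by more than 1 probe set, 57 probe sets in all for 32 members, 14 of which had several. For Itgb1 the 2 bright probe sets gave EMT minus Squamous differences of means of 0.82 and 0.79 and correlated at r = 0.99 over the 17 tumours, while a dim one gave −0.14. For Itga4 the dimmest probe set ran against the one used (r = −0.65 over the 17 tumours). For Itgav the differences were 0.61, 0.76 and 0.08, from brightest to dimmest. These correlations describe probe sets of 1 gene on shared arrays.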

How the data were processed

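RNA of 17 tumours was measured, 1 Affymetrix array each, from biotin-labelled cRNA of total RNA, per the labels' protocols. As deposited, each of 22690 probe sets has a log2 value on every array; the scale was inferred from the values, and the normalization is not given in the sources used here. The supplied probe table paired 20380 probe sets with 1 gene, 691 with several and 1555 with none (64 controls were left out), and 20351 were matched by gene identifier. A gene with several probe sets was read by its brightest one on average. Columns of no listed sample numbered 0.

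EMT and Squamous tumours were compared on the deposited values with limma 3.58.1 in R 4.3.3 (histology and title format as terms, Benjamini-Hochberg over 12393 genes, threshold 0.05). Partner correlations were tested by exactly permuting the pairings (Python 3.11.15, numpy 2.4.6, pandas 2.3.3, scipy 1.17.1; figures with matplotlib 3.10.9). The model was tested on simulated data. The members, gene lists and pairs were chosen with earlier results of these data known; no test is adjusted over the members alone. Any member could be named, and of the adaptor, hemidesmosome, basement membrane and ligand lists the 2 highest and 2 lowest genes by fold change were named, with genes past an unadjusted p of 0.05. Alternatives were no title format term, numbered arrays alone, quantile normalization, array medians subtracted, averaged probe sets, genes above the median gene, a trended robust fit, limma array weights, a fit of all 17 tumours, averaged arrays of a shared title number, and leaving out each tumour.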

Additional observations from a re-analysis of the deposited data

Results flagged for a closer look

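Of 64 checks of the members within the 6 EMT or the 9 Squamous tumours, 5 found a tumour far from the others of its group, and chance gives about 1 in 20. In Squamous 9 Itga2 was at 6.07, above the next Squamous value of 4.66. In the same tumour Itga6 was at 9.95 and Itgb6 at 4.19, below the next Squamous values of 11.30 and 5.96. Squamous 9 has a TM title, and EMT 5 and EMT 6, on the other TM arrays, had Itga2 at 6.34 and 6.07 and Itgb6 at 3.98 and 4.02, but Itga6 at 10.96 and 11.52. Itgb1 in Squamous 5 was at 10.93, above the next Squamous value of 10.26. Itgb4 in Squamous 8 was at 8.42, below the next Squamous value of 9.28.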

How the results depend on the processing

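No member passed the adjusted threshold in the limma fit or in any alternative, the smallest adjusted p being 0.0849. Over all genes the count past it was 0, and 14 without EMT 1, with 0 members among them. The leukocyte median was −1.29 with genes above the median gene, when Itgax and Itgb2 alone remain. The count of pairs was 8, and 1 without the 2 farthest tumours. Of the members' fold changes, 11 of the alternative fits' values turned sign: Itga6 at −0.10 and Itgam at 0.49 with no title format term, Itga4 at −0.27, Itga6 at −0.16, Lama3 at 0.84 and Lamb3 at 0.34 on numbered arrays, Itga2b at 0.0021 with array medians subtracted, and Itga4 at −0.19, Itgb2l at −0.0067, Itgb5 at −0.12 and Itgb7 at −0.12 with array weights. Leaving out 1 tumour gave ranges across 0 for 11 members: Itga2 −0.057 to 0.35, Itga2b −0.12 to 0.022, Itga4 −0.27 to 0.14, Itga6 −0.16 to 0.29, Itgam −0.32 to 0.054, Itgb2l −0.060 to 0.073, Itgb5 −0.057 to 0.39, Itgb6 −0.42 to 0.0058, Itgb7 −0.077 to 0.13, Lama3 −1.004 to 0.84 and Lamb3 −0.74 to 0.34. Without Squamous 9 the fold changes equal those on numbered arrays. Correlations that turned sign were Itga2b with Itgb3 (0.017 by rank, 0.074 on numbered arrays), Itga3 with Itgb1 (−0.32), Itga7 with Itgb1 (−0.24) and Itgav with Itgb6 (0.34) without the 2 farthest tumours, and Itga7 with Itgb1 at −0.0095 with the mean of probe sets and −0.0059 with quantile normalization. The causes were not tested. Itgal with Itgb2 also missed the threshold with quantile normalization (r = 0.72, exact permutation adjusted p = 0.0769). Settings for members outside the Squamous range were chosen after seeing the data. No paired analysis was possible because replicate numbers only name tumours. Title format confounds dim members on the 3 TM arrays, and signal near background limits Itga2, Itgal and Itgb6.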
